A study of Mus musculus with 70 samples.

Results

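Carcinoembryonic antigen-related cell adhesion molecules, encoded by the Ceacam genes, are a family of immunoglobulin superfamily proteins of which 4 members were followed in the mouse pituitary gland: Ceacam16, Ceacam10, Ceacam1 and Ceacam2. They are 4 of 22835 genes in the RNA-seq table. The choice of members rested on measured values. Ceacam16 was chosen by its higher level after T3 in wild-type mice and Ceacam10 by its low level in hypothyroid Thrb-KO mice, so these values are given as descriptions, with no test. Ceacam1 and Ceacam2 were taken as relatives that pituitary tissue also expresses. Each gene was read from its transcript with the highest mean level, which was NM_001033419 for Ceacam16, NM_007675 for Ceacam10, NM_001039185 for Ceacam1 and NM_001113368 for Ceacam2.

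CEACAM proteins carry immunoglobulin-like domains and mediate contacts between cells or within extracellular matrix. CEACAM1 is a transmembrane adhesion receptor whose long form signals through inhibitory motifs that bind the phosphatases SHP-1 and SHP-2. CEACAM16 is a secreted protein known from the tectorial membrane of the cochlea, a matrix that also holds the tectorins, and CEACAM10 is a secreted member found in rodents. Triiodothyronine (T3) acts through nuclear receptors, of which TRβ, encoded by Thrb, is the main form in pituitary hormone cells, and these receptors bind paired copies of AGGTCA in the same orientation with a 4-base spacer (a direct repeat called DR4).

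The study asked how TRβ controls the response of pituitary genes and chromatin to T3. RNA-seq was made from adult male mice, 2 to 4 months old and on a C57BL/6J background, with 3 pituitaries pooled in each library. Every mouse drank 0.05% methimazole and 1% potassium perchlorate for 4 or 5 weeks, which blocks thyroid hormone synthesis. Hyperthyroid groups also received 0.5 µg/ml T3 during the final 1 week, so hypothyroid and hyperthyroid differ by T3 and no group was left untreated. There were 4 hypothyroid wild-type, 4 hyperthyroid wild-type, 5 hypothyroid Thrb-KO and 5 hyperthyroid Thrb-KO libraries. Thrb-KO mice lack the receptor in all tissues and throughout life. TRβ binding came from chromatin affinity purification (ChAP-seq) in untreated male HAB;BirA mice, whose endogenous TRβ carries a tag that the BirA ligase biotinylates, against BirA mice without the tag. The control libraries were taken as BirA from their titles, because their genotype label reads HAB;BirA, and control reads and folds over control below rest on the titles. These peak lists were called on merged libraries, 3 per genotype, of pooled pituitaries or of cerebral cortex. Open chromatin (ATAC-seq) came from GFP-labelled nuclei of cells that had expressed Cre from the Thrb b2 locus, with 4 hypothyroid and 4 hyperthyroid libraries. Its list of T3-regulated peaks gives no direction of change. The ATAC-seq mice were male and received the same methimazole, perchlorate and T3 treatments as the RNA-seq mice. ChAP-seq and ATAC-seq mice were also 2 to 4 months old, on mixed strain backgrounds rather than C57BL/6J alone. ChAP-seq of hypothyroid and hyperthyroid mice and histone ChIP-seq were not analysed here.

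The RNA-seq libraries held 21453548 to 55273749 read counts summed over transcripts, with a median of 34673225. A read can count for several transcripts, so these sums are not numbers of sequenced reads. In CPM (read counts scaled to the summed counts of the library), 3 reads corresponded to 0.0543 to 0.140. Replicates 1 and 2 of every group stood apart from replicates 3 to 5, with Lars2 at 2571 to 3420 CPM in the 8 libraries of the first set and 53.2 to 95.1 CPM in the other 10. Values within each set are given below where they differ. Mean Thrb levels were not lower in the groups labelled Thrb-KO. In hypothyroid mice the genotypes overlapped, with 257 ± 27.3 CPM (SD, n = 4) in wild type and 271 ± 20.1 CPM (n = 5) in Thrb-KO. Hyperthyroid mice had 104 ± 22.8 CPM (n = 4) in wild type and 260 ± 32.0 CPM (n = 5) in Thrb-KO, without overlap. These values cover a whole transcript and therefore do not check a deletion of part of the gene. Hormone-cell markers of the pituitary summed to between 69566 and 224252 CPM in every library, led by Gh.

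Ceacam16 lies on chromosome 7 of mm9 from 20437446 to 20446648 on the minus strand. The pituitary TRβ-HAB peak nearest to it spans 20449451 to 20450250, 2.8 kb upstream of the gene body and in no exon of it. The next gene on that side is Ceacam19, from 20461091 to 20473314. A stretch of 294 bases of this peak, reaching 20 bases beyond the outermost repeats, is printed from 5′ to 3′ on the strand of Ceacam16, because this is the peak in which binding and open chromatin overlap beside the member with the highest T3 response. Capitals mark the half-sites of 3 DR4 sequences, which match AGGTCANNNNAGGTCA with up to 3 mismatches in the 12 fixed bases.
Ceacam16 upstream peak, chr7:20449654-20449947, minus strand: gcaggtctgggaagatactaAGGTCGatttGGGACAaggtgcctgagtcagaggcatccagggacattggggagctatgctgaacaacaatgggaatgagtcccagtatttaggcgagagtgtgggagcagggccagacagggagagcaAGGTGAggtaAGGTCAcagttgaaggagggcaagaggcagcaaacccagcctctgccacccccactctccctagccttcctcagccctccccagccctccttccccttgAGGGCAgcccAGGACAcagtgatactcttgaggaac
Ceacam16 promoter, chr7:20446599-20446898, minus strand: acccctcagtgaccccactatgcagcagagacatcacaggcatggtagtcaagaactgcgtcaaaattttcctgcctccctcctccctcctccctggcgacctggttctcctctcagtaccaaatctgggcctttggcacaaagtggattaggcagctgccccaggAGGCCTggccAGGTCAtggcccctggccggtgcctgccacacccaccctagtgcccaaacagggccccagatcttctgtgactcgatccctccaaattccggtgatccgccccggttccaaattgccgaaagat
The second sequence is the Ceacam16 promoter, 250 bases before to 50 bases after the annotated start, in which capitals mark a DR4 with 2 mismatches.

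Within the upstream peak, the DR4 at 20449783 to 20449798 had 1 mismatch and lay 3143 bases upstream of the Ceacam16 start. The DR4 at 20449674 to 20449689 had 2 mismatches and lay 3034 bases upstream. The DR4 at 20449912 to 20449927 had 3 mismatches, beyond the limit of 2 used for counting, and lay 3272 bases upstream. All 3 were on the strand of the gene, although both strands were searched. With up to 2 mismatches the peak thus held 2 DR4 sequences. Among 8051 pituitary TRβ-HAB peaks, each read as an 800-base window about its centre, 25.2% held at least 1 and 3.17% at least 2. Among the 5164 cortex peaks these shares were 11.9% and 0.930%, and among the 1776 T3-regulated ATAC peaks 38.1% and 6.48%. The promoter DR4 lay at 20446717 to 20446732, 77 bases upstream of the start. A DR4 with up to 2 mismatches was found in 316 (2.23%) of 14150 promoters of the same 300 bases, and in none of the promoters of Ceacam10, Ceacam1 and Ceacam2. A sequence match describes these letters and does not show that the receptor occupies them. The study reported that a fragment with a Ceacam16 binding site raised reporter activity with T3 in rat pituitary cells. Mutation of its DR4 motifs abolished that activity, and the study describes T3-inducible chromatin opening at the site. The coordinates of that fragment were not compared with those given here.

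The Ceacam16 upstream peak was among the most heavily read of the pituitary list. It held 168 TRβ-HAB reads against 9 control reads, where the median peak held 18 TRβ-HAB reads. The authors' fold over control was 15.6 and their false discovery rate 6.99e-133. By reads it ranked 14 of 8051, and 0.174% of peaks had as many reads, while by fold, for which the median peak had 10.0, it ranked 2119. Its length of 800 bases, against a median of 300, adds to its read number. No cortex TRβ-HAB peak lay within 20 kb of Ceacam16. The nearest one began 35.5 kb from the gene body, at 20401601 to 20401900, with 15 reads against 0, and coincided with a pituitary peak of 17 reads.

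A T3-regulated ATAC peak from 20449490 to 20450512 overlapped 761 bases of the TRβ-HAB peak upstream of Ceacam16. Its adjusted p-value, 7.59e-89 by the authors' comparison, was the smallest of all 1776 peaks in the list. The next smallest was 1.36e-48 and the median 0.00135. A further ATAC peak overlapped exon sequence at the 3′ end of Ceacam16 (20437277 to 20437676, authors' adjusted p-value 6.75e-06), and another overlapped an exon further upstream (20441101 to 20441441, authors' adjusted p-value 0.0380). Over the whole list, 872 (10.8%) of pituitary TRβ-HAB peaks overlapped a T3-regulated ATAC peak, and the plot of these pairs shows the pair upstream of Ceacam16 alone at the top.

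**Figure D1:**
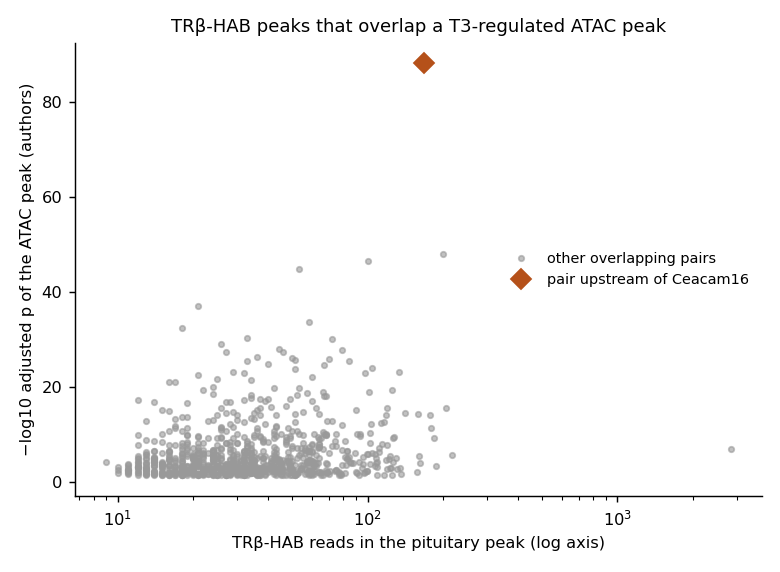
Each point is a pituitary TRβ-HAB peak that overlaps a T3-regulated ATAC peak, with its TRβ-HAB reads on a log axis and −log10 of the authors' adjusted p-value of the ATAC peak on the vertical axis. The pair upstream of Ceacam16 (diamond, 168 reads, adjusted p-value 7.59e-89) lies above all other pairs, whereas several pairs have more TRβ-HAB reads.

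Peaks within 20 kb of a gene body were common, and the members differed in having them. Of 14150 tested genes placed on mm9, 40.1% had a pituitary TRβ-HAB peak within 20 kb, 33.6% a cortex TRβ-HAB peak and 7.71% a T3-regulated ATAC peak. Ceacam16 had 1, 0 and 3 of these, and Ceacam10, Ceacam1 and Ceacam2 had 0 of each. Both a pituitary TRβ-HAB and an ATAC peak within 20 kb were found for 828 genes (5.85%), and 3 or more ATAC peaks for 31 genes (0.219%).

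Ceacam10 (plus strand, 25562223 to 25569668) had its nearest pituitary TRβ-HAB peak 40.8 kb upstream, at 25521051 to 25521400, with 19 reads against 3. A second one lay 62.7 kb upstream, at 25499151 to 25499500, with 16 reads against 2, and overlapped a T3-regulated ATAC peak with an authors' adjusted p-value of 8.43e-22 (rank 37 of 1776). Neither stands near the read number of the Ceacam16 peak.
Ceacam1 (minus strand, 26246721 to 26262644) had no peak of any of the 3 lists within 100 kb, and its nearest pituitary TRβ-HAB peak was 149 kb away. That peak, with 49 reads against 3, was 86.4 kb upstream of Ceacam2 (minus strand, 26301061 to 26325023), which had no cortex or ATAC peak within 100 kb. The map of listed peaks sets the 4 genes side by side.

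**Figure D2:**
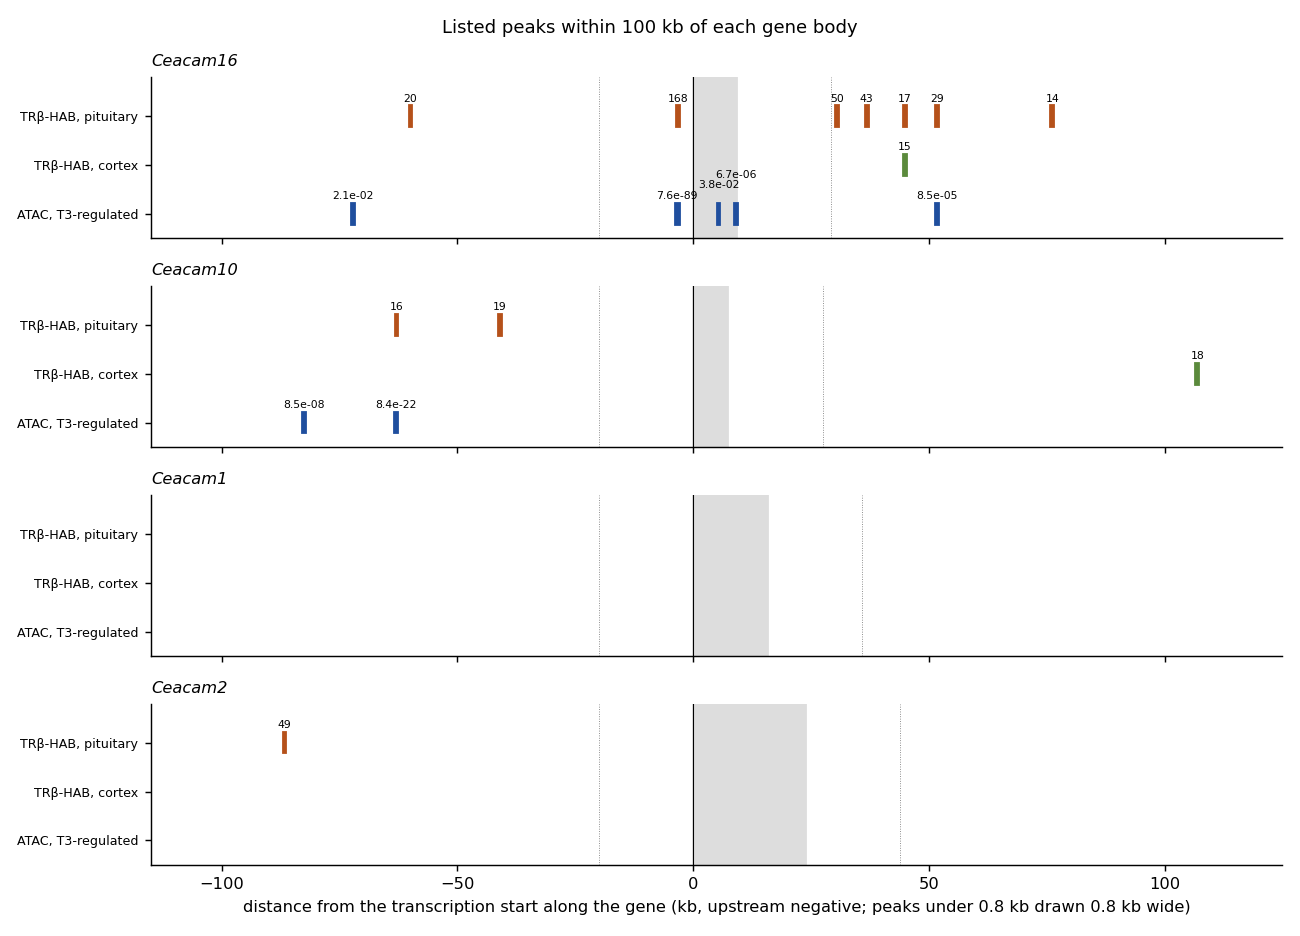
Peaks of the 3 lists within 100 kb of each gene body, by distance in kb from the transcription start along the gene (upstream negative), with the gene body in grey and dotted lines 20 kb beyond it. Numbers above TRβ-HAB peaks are reads and those above ATAC peaks the authors' adjusted p-values. Ceacam16 has 7 pituitary TRβ-HAB peaks and 5 ATAC peaks in this range, and Ceacam1 none.

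Ceacam16 mRNA was near the detection limit in hypothyroid pituitaries and was higher with T3 in every library of both genotypes. In hypothyroid wild type the 4 libraries had 0.371, 0.379, 0.253 and 0.218 CPM, which rest on 6 to 13 reads each. With T3 the 4 wild-type libraries had 16.9, 16.7, 14.7 and 16.4 CPM. The groups are far apart, with means of 0.305 ± 0.082 and 16.2 ± 1.02 CPM (SD, n = 4 each) and a ratio of 53.0. This ratio was 44.8 in replicates 1 and 2 and 66.1 in replicates 3 and 4. Since Ceacam16 was chosen on this contrast, it is not tested here.

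The response of Ceacam16 in Thrb-KO mice was measured in libraries that did not choose the gene. The 5 hypothyroid Thrb-KO libraries had 0.308, 0.491, 0.507, 0.493 and 0.384 CPM (9 to 28 reads), with a mean of 0.436 ± 0.0873 CPM (SD, n = 5). With T3 the Thrb-KO libraries had 3.94, 4.98, 3.22, 3.03 and 5.73 CPM, with a mean of 4.18 ± 1.16 CPM (n = 5). Every hyperthyroid Thrb-KO library was above every hypothyroid one and below every hyperthyroid wild-type one. The ratio of means between hyperthyroid and hypothyroid Thrb-KO was 9.58. By limma on log2(CPM + 1) the T3 response in Thrb-KO was 1.82 (SE 0.12, 95% interval 1.57 to 2.07, adjusted p = 2.43e-08), a scale that understates the change of so low a gene. On recovered reads, edgeR's quasi-likelihood test gave 3.24 on the log2 scale (adjusted p = 4.37e-08). Within the library sets the limma response was 1.96 (adjusted p = 3.10e-07, replicates 1 and 2) and 1.73 (adjusted p = 0.000265, replicates 3 to 5). Over all alternatives its adjusted p lay between 1.60e-39 and 0.000265.

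In CPM, Ceacam16 gained 3.74 with T3 in Thrb-KO, 23.6% of the 15.9 CPM it gained in wild type. The hyperthyroid Thrb-KO mean was 25.8% of the hyperthyroid wild-type mean. The log2 response was lower by 1.89 in Thrb-KO, from 3.72 in wild type, which is a description because the wild-type response chose the gene. Without T3 the genotypes overlapped, and the Thrb-KO mean was 1.43 times the wild-type mean, a ratio of 1.06 in replicates 1 and 2 and 1.96 in the others. Wild-type libraries enter both contrasts, so these values are not independent of each other.

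**Figure D3:**
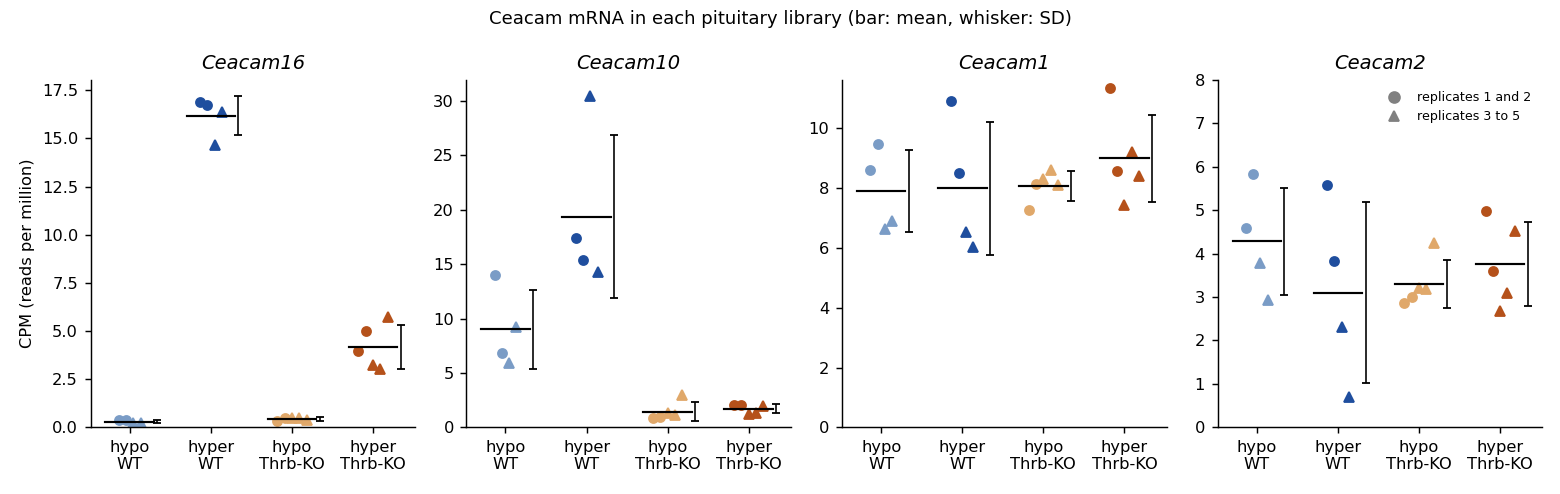
CPM of each Ceacam gene in each library (points), with the group mean (bar) and SD (whisker). Circles are replicates 1 and 2 and triangles replicates 3 to 5. Ceacam16 has 3.03 to 5.73 CPM in hyperthyroid Thrb-KO, between both hypothyroid groups and hyperthyroid wild type. Ceacam10 is below 3 CPM in all Thrb-KO libraries, whereas Ceacam1 and Ceacam2 overlap in all groups.

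Few genes had a T3 response in Thrb-KO. Of 14472 genes tested, 1.33% were called in either direction, which needs an adjusted p below 0.05 together with a fold of 1.5 or more, with 0.567% higher, Ceacam16 among them, and 0.767% lower. In wild type the shares were 10.4% in either direction, 4.28% higher and 6.14% lower. The T3 response differed between genotypes for 5.13% of genes, being higher in Thrb-KO for 2.94% and lower for 2.19%.

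Ceacam10 mRNA was low in Thrb-KO mice at both hormone levels. Hypothyroid wild-type libraries had 14.0, 6.85, 5.95 and 9.21 CPM, and hypothyroid Thrb-KO libraries 0.889, 0.916, 1.34, 1.18 and 2.94 CPM. The means were 9.0 ± 3.61 (SD, n = 4) and 1.45 ± 0.853 CPM (n = 5), 6.19-fold apart and without overlap, a description because Ceacam10 was chosen on these groups. Background for this contrast is that 3.54% of genes were called, 2.36% of them lower in Thrb-KO, both as shares of all genes tested. The mouse Ceacam10 protein is known from secretions of the seminal vesicle, and no pituitary role is stated here.

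The hyperthyroid libraries give a test of the genotype difference that the choice did not use. Hyperthyroid wild-type libraries had 17.4, 15.4, 30.5 and 14.2 CPM of Ceacam10, and hyperthyroid Thrb-KO libraries 2.06, 2.09, 1.19, 1.32 and 1.96 CPM. The lowest wild-type library was far above the highest Thrb-KO library. The means, 19.4 ± 7.50 (n = 4) and 1.73 ± 0.432 CPM (n = 5), were 11.2-fold apart. Ceacam10 fell by 2.85 on the log2(CPM + 1) scale (SE 0.25, 95% interval -3.38 to -2.33, adjusted p = 2.27e-07 by limma), where 5.65% of genes were called in either direction and 2.82% lower. It fell in both library sets, with -2.50 in replicates 1 and 2 (adjusted p = 7.86e-07) and -3.15 in the others (adjusted p = 6.79e-05). Its adjusted p was between 2.09e-21 and 6.79e-05 over all alternatives.

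Within genotypes, the T3 response of Ceacam10 is given without a test. Hyperthyroid wild-type libraries all lay above the hypothyroid ones, with a ratio of means of 2.15, which was 1.57 in replicates 1 and 2 and 2.95 in replicates 3 and 4. In Thrb-KO the groups overlapped and the ratio of means was 1.19, with 2.30 in replicates 1 and 2 and 0.819 in replicates 3 to 5. On the log2(CPM + 1) scale the response was 1.03 in wild type and 0.19 in Thrb-KO. The difference between these, -0.83, came from replicates 3 to 5, where it was -1.52, since it was 0.02 in replicates 1 and 2. The plot of changes with their intervals shows this wide interval beside the narrower ones of Ceacam16.

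Leukocyte markers moved with the genotype in the same direction as Ceacam10. Of 12 listed markers, 8 were tested, and 6 fell in hypothyroid Thrb-KO against wild type (2.36% of all genes did), by limma, with Csf1r, the receptor for colony-stimulating factor 1, at -0.77 (adjusted p = 0.000604) and C1qa, a complement component, at -0.84 (adjusted p = 0.00316). In hyperthyroid mice 3 of 8 fell (2.82% of all genes did), among them C1qa at -0.62 (adjusted p = 0.0190). The summed level of the list in hypothyroid mice was 93.4 to 113 CPM for wild type and 54.2 to 62.8 CPM for Thrb-KO, without overlap. In hyperthyroid mice it was 69.8 to 126 CPM for wild type and 54.1 to 70.6 CPM for Thrb-KO, with overlap. Markers of T cells (Cd3e) and neutrophils (S100a8, S100a9) did not pass the filter on low values, with group means of at most 0.975 CPM. The hyperthyroid count fell to 0 without hyperthyroid wild-type replicate 3 and to 1 without hyperthyroid wild-type replicate 4, hyperthyroid Thrb-KO replicate 1 or hyperthyroid Thrb-KO replicate 2. The part of leukocytes in the level of Ceacam10 was not tested. In bulk tissue, fewer cells of a type and less RNA per cell cannot be told apart.

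**Figure D4:**
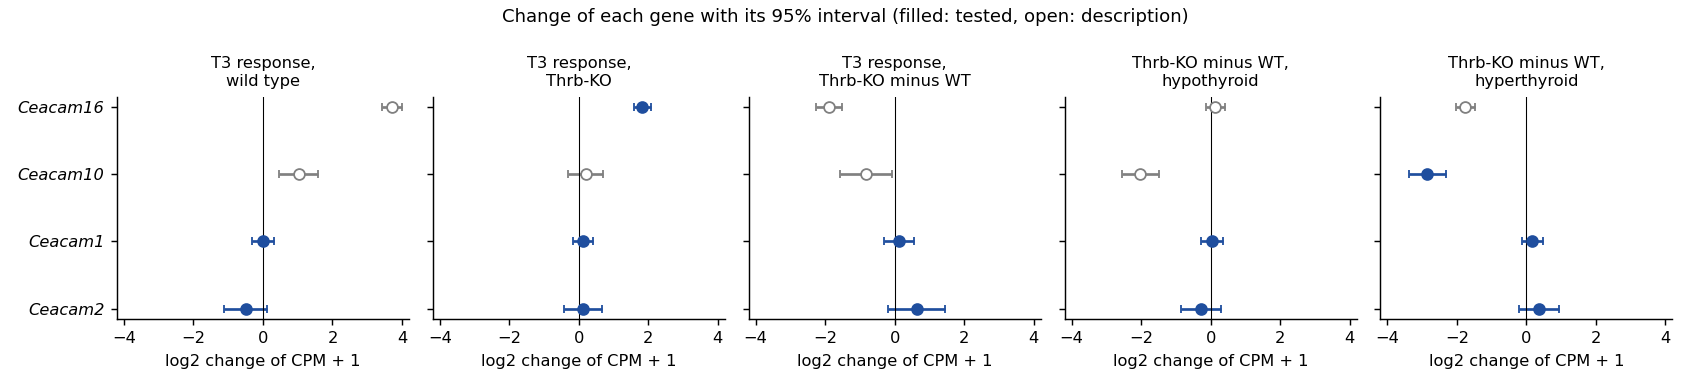
Change of each Ceacam gene on the log2(CPM + 1) scale with its 95% interval in the 5 contrasts. Filled points were tested and open points are descriptions, because they use the values by which Ceacam16 and Ceacam10 were chosen. Ceacam16 lies at 1.82 in the T3 response in Thrb-KO and Ceacam10 at -2.85 in hyperthyroid Thrb-KO minus wild type, while all intervals of Ceacam1 and Ceacam2 include 0.

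Ceacam1, the adhesion receptor, had nearly the same mean level in all groups and no call in any contrast. Its means were 7.89 ± 1.37 (n = 4) in hypothyroid wild type, 7.99 ± 2.22 (n = 4) in hyperthyroid wild type, 8.06 ± 0.497 (n = 5) in hypothyroid Thrb-KO and 8.99 ± 1.46 CPM (n = 5) in hyperthyroid Thrb-KO. Over all 18 libraries it ranged from 6.02 CPM, in hyperthyroid wild-type replicate 4, to 11.3 CPM, in hyperthyroid Thrb-KO replicate 1. No pair of neighbouring means in this order differed beyond their spread. Its T3 response in wild type was -0.0034 on the log2(CPM + 1) scale (95% interval -0.32 to 0.32, adjusted p = 0.995 by limma). The T3 response in Thrb-KO was 0.13 (-0.16 to 0.42, adjusted p = 1.000). The genotype difference was 0.04 in hypothyroid mice (-0.27 to 0.34, adjusted p = 0.929) and 0.17 in hyperthyroid mice (-0.13 to 0.48, adjusted p = 0.501), and the responses differed by 0.13 (-0.30 to 0.56, adjusted p = 0.925). None of these intervals reaches a 1.5-fold change on this scale.

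Ceacam2, the closest relative of Ceacam1, was also not called in any contrast, with wider intervals. Hyperthyroid wild type had the widest spread, with 5.58, 3.82, 2.31 and 0.707 CPM, the last from 27 reads. Its means were 4.29 ± 1.23 (n = 4), 3.10 ± 2.08 (n = 4), 3.30 ± 0.547 (n = 5) and 3.77 ± 0.964 CPM (n = 5) in hypothyroid wild type, hyperthyroid wild type, hypothyroid Thrb-KO and hyperthyroid Thrb-KO. Its T3 response in wild type was -0.50 (95% interval -1.11 to 0.11, adjusted p = 0.279 by limma) and in Thrb-KO 0.13 (-0.42 to 0.68, adjusted p = 1.000). The difference between the responses was 0.63 (-0.19 to 1.46, adjusted p = 0.520). The genotype difference was -0.28 in hypothyroid mice (-0.86 to 0.31, adjusted p = 0.672) and 0.36 in hyperthyroid mice (-0.22 to 0.94, adjusted p = 0.461). Each of these intervals reaches beyond a 1.5-fold change on this scale, on the lower or the upper side but not on both. The T3 response in wild type was called without hyperthyroid wild-type replicate 1 (-0.78, adjusted p = 0.0492). In hypothyroid mice the genotype difference was called in replicates 1 and 2 alone (-0.65, adjusted p = 0.0187) but was 0.06 in replicates 3 to 5. In hyperthyroid mice it was called in replicates 3 to 5 alone (0.87, adjusted p = 0.0368) but was -0.10 in replicates 1 and 2.

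Reads of Ceacam1 and Ceacam2 may be shared. In the annotated transcripts, 47.3% of the 50-base stretches of Ceacam1 and 46.6% of those of Ceacam2 also occurred in transcripts of another gene, each of the 2 being listed for the other. The share was 4.63% for Ceacam10, whose shared stretches occurred in Ceacam1 and Ceacam2, and 0 of 1586 stretches for Ceacam16. Reads from shared stretches appear to be counted for each gene that they match. The globin genes Hba-a1 and Hba-a2, for example, had the same mean in every group (29.6 CPM in hypothyroid wild type). Levels of Ceacam1 and Ceacam2 may thus hold some of the same reads, to an unknown degree, while those of Ceacam16 are not touched by this. Over the 18 libraries log2(CPM + 1) of Ceacam1 and Ceacam2 correlated with r = 0.759, and that of Ceacam16 and Ceacam10 with r = 0.499. These values describe libraries that share groups and library sets. The part of shared reads in the correlation of Ceacam1 and Ceacam2 was not tested, nor was their part in the low level of Ceacam10 in Thrb-KO. The 4 listed transcripts of Ceacam1 had group means of 7.49 to 8.99 CPM and the 3 of Ceacam2 means of 3.09 to 4.29 CPM.

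The rest of the family was nearly silent. Of 24 other Ceacam and Psg genes in the table, 11 of them Ceacam genes, 23 did not pass the filter on low values. Their group means were at most 0.115 CPM and no library had more than 7 reads. The highest of these means was that of Ceacam19, the neighbour of Ceacam16 that shares its upstream peak within 20 kb, in hypothyroid wild type, and in hyperthyroid wild type Ceacam19 had 0.0256 CPM. Psg16, a pregnancy-specific glycoprotein gene, was the only one tested, with group means of 3.79 to 4.99 CPM and no call in the 5 contrasts.

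Genes near the members were given where they lay within 100 kb and were tested. Bcl3, which encodes an IκB family cofactor of NF-κB, lies 29.3 kb from Ceacam16. Its 4 hypothyroid wild-type libraries had 2.40, 2.27, 2.11 and 2.21 CPM and its hyperthyroid ones 12.8, 12.0, 11.4 and 12.1 CPM. Bcl3 rose with T3 in wild type by 2.01 on the log2(CPM + 1) scale (adjusted p = 7.36e-09 by limma). In Thrb-KO its means were 3.30 ± 0.795 and 4.71 ± 0.990 CPM (n = 5 each), and its response of 0.41 was not called (adjusted p = 0.150). The response was lower in Thrb-KO by the test of the difference (-1.60, adjusted p = 2.88e-05), and Bcl3 was lower in hyperthyroid Thrb-KO than in wild type (-1.21, adjusted p = 5.53e-06). Within 20 kb Bcl3 had 4 pituitary TRβ-HAB peaks, 1 cortex TRβ-HAB peak and 1 T3-regulated ATAC peak.

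Cd177, a GPI-anchored surface protein known from neutrophils, lies 16.9 kb from Ceacam10. It had 3.14 to 4.09 CPM in the 4 hyperthyroid wild-type libraries, with a mean of 3.46 ± 0.445 CPM, and at most 0.752 CPM in every library of the other groups. Cd177 passed the filter on low values through the 4 hyperthyroid wild-type libraries alone, so its changes are given without a test. Its T3 response was 1.64 in wild type and 0.03 in Thrb-KO, and its genotype difference was -1.56 in hyperthyroid mice. In hypothyroid mice, in which Ceacam10 was 6.19-fold apart, the Cd177 difference was 0.05. Of the other tested neighbours only Pvr, an adhesion receptor 42.3 kb from Ceacam16, was called in a contrast. It fell in hypothyroid Thrb-KO, from 27.9 to 15.9 CPM (-0.77, adjusted p = 0.000974), where 2.36% of all genes were lower.

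Tectorial membrane genes were examined because Ceacam16 is known from that matrix. Of 11 listed genes, 5 were tested, and Col11a1, a fibrillar collagen chain, was the only one called, although the count for T3 in wild type was 2 without hyperthyroid wild-type replicate 1 or replicate 2. Its hyperthyroid wild-type libraries had 34.2, 40.0, 34.3 and 53.5 CPM, and all other libraries between 13.5 and 19.6 CPM. Col11a1 rose with T3 in wild type (1.13, adjusted p = 1.76e-06 by limma), and its response was lower in Thrb-KO (difference -0.95, adjusted p = 0.00114). It was lower in hyperthyroid Thrb-KO than in wild type (-1.20, adjusted p = 8.67e-07). Of all genes, 4.28% rose with T3 in wild type, 2.19% had a lower response in Thrb-KO and 2.82% were lower in hyperthyroid Thrb-KO. The median T3 response of the 5 genes in wild type was 0.26, against -0.04 over all genes tested.

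The tectorins, Tecta and Tectb, did not pass the filter and were singled out after their values were seen, so they are given without a test. Tecta had 0.922, 1.48, 1.82 and 1.88 CPM in hyperthyroid wild type (41 to 72 reads) and at most 0.285 CPM in hypothyroid wild type (1 to 10 reads), without overlap. In hyperthyroid Thrb-KO it had 0.272 to 0.529 CPM. Tectb had 10 to 36 reads in each hyperthyroid wild-type library and 0 to 3 reads in each library of the other groups. Of the 4 other listed genes that did not pass the filter, Otoa, which encodes otoancorin, was lower with T3, with group means of 0.755 and 0.542 CPM in hypothyroid and hyperthyroid wild type and of 0.844 and 0.448 CPM in the same Thrb-KO groups. Otog, Otogl and Col9a1 had group means of at most 0.459 CPM. Of the cochlear list, Otof, a calcium sensor of hair cell synapses, was the only gene tested, and it rose with T3 in wild type (0.82, adjusted p = 0.000514). The plot of neighbours and tectorial genes shows these levels by library.

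**Figure D5:**
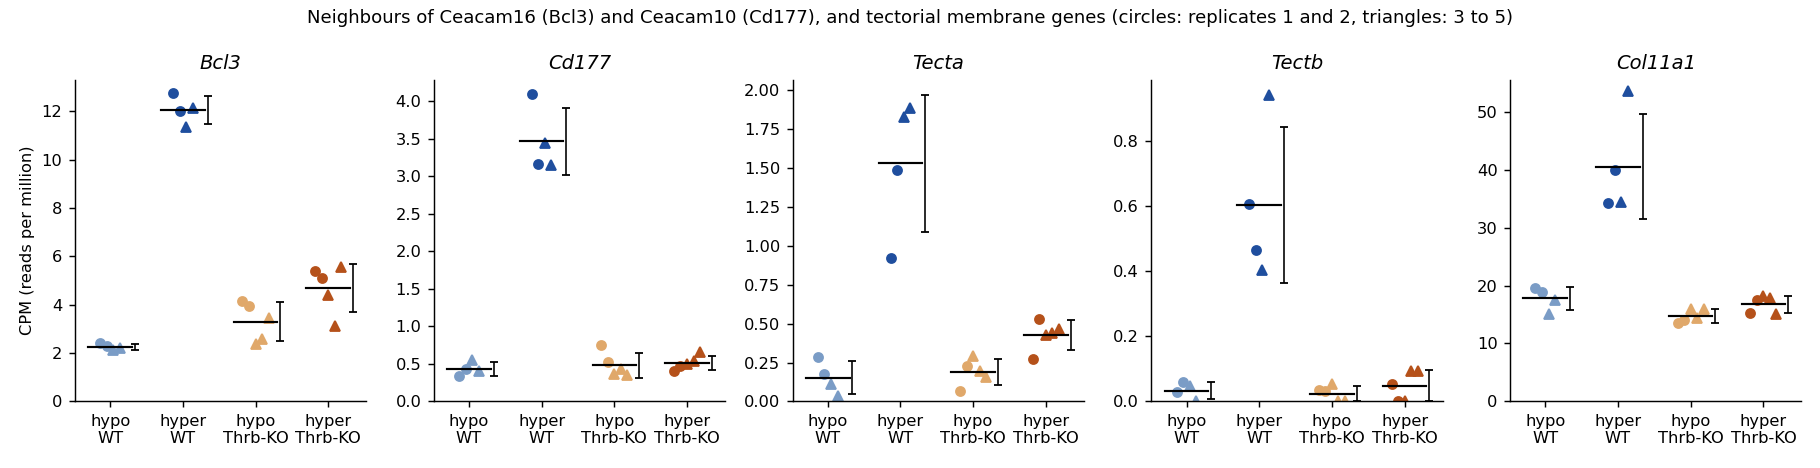
CPM by library (points) with the group mean (bar) and SD (whisker) of Bcl3, near Ceacam16, of Cd177, near Ceacam10, and of the tectorial membrane genes Tecta, Tectb and Col11a1. In all 5 panels the 4 hyperthyroid wild-type libraries lie above every other library, with Bcl3 at 11.4 to 12.8 CPM and Cd177 at 3.14 to 4.09 CPM.

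Partners of CEACAM1 and other adhesion genes were set beside the members. All 14 listed partners of CEACAM1 were tested, among them the phosphatase genes Ptpn6 and Ptpn11 and the kinase gene Lyn, and 0 were called in any of the 5 contrasts. Of all genes, 10.4% were called for T3 in wild type, 1.33% for T3 in Thrb-KO and 5.13% for the difference of responses. For genotype the shares were 3.54% in hypothyroid and 5.65% in hyperthyroid mice. A count of 0 among 14 is not far from these shares. At an adjusted p under 0.05 with a change below 1.5-fold, Lyn was at -0.51 for T3 in wild type (adjusted p = 0.00170) and Ptpn11 at 0.35 for genotype in hyperthyroid mice (adjusted p = 0.00897). The median T3 response of the partners in wild type was -0.23, against -0.04 over all genes tested.

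Among 23 other immunoglobulin superfamily adhesion genes, 7 fell with T3 in wild type and 0 rose, where 6.14% of all genes fell and 4.28% rose. L1cam, a neural adhesion molecule, went from 10.6 to 5.85 CPM (-0.77, adjusted p = 2.73e-05 by limma), and Jam3, a junctional adhesion molecule, from 57.7 to 28.8 CPM (-0.98, adjusted p = 0.000176). Icam2, known from endothelium, fell in both genotypes, by 0.96 in wild type (adjusted p = 0.000240) and by 0.95 in Thrb-KO (adjusted p = 0.000567). The response differed between genotypes for 3 of the 23 genes, which were L1cam, Jam3 and Cadm1, all higher in Thrb-KO as were 2.94% of all genes. With the replicate block this count was 5, and without hyperthyroid wild-type replicate 3 it was 1. In Thrb-KO 2 genes fell with T3 (0.767% of all genes did), or 1 without hypothyroid Thrb-KO replicate 2 or 5 or hyperthyroid Thrb-KO replicate 5. By genotype, 3 fell in hypothyroid mice (2.36% of all genes did), or 4 with the replicate block, and 0 were called in hyperthyroid mice. No direction is shared by the whole list, and its median in wild type was -0.34, against -0.04 over all genes tested.

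Of the other cell type markers, Gh and Prl rose and Tshb and Cga fell with T3 in wild type, among 8 hormone-cell genes. In that contrast 4.28% of all genes rose and 6.14% fell. Pou1f1, a pituitary transcription factor of this list, was higher in hyperthyroid Thrb-KO than in wild type (0.63, adjusted p = 0.0163 by limma). Of 9 endothelial genes, only Cldn5 fell with T3 in wild type (-0.88, adjusted p = 0.000498 by limma), near the share of all genes that fell. Pcsk2, of 2 listed intermediate lobe genes, fell in hypothyroid Thrb-KO (-0.68, adjusted p = 0.00949), whereas the other, Pax7, was not called (-0.0028, adjusted p = 0.992). Only Aldh1a2 of the 4 genes on the stem cell list fell in hyperthyroid Thrb-KO (-0.59, adjusted p = 0.000772). Of all genes, 2.36% and 2.82% were lower in these 2 contrasts. None of 5 red cell genes was called, where 1.33% to 10.4% of all genes were called in a contrast.

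By Pearson correlation of log2(CPM + 1) over the 18 libraries, the genes most like Ceacam16 were Dbc1 (r = 0.984), Hunk (0.984) and Tspan12 (0.968). Hunk, for example, had group means of 13.2, 91.1, 13.7 and 37.3 CPM in hypothyroid and hyperthyroid wild type and in hypothyroid and hyperthyroid Thrb-KO. Those most like Ceacam10 were Ntsr2 (0.944), Cmtm7 (0.942) and Fam169b (0.941), of which Fam169b had group means of 4.62, 10.3, 1.48 and 1.44 CPM in the same order. For Ceacam1 the highest value was 0.805 (Casp2) and for Ceacam2 it was 0.763 (Chrnb3). These correlations describe libraries that share groups and library sets.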

How the data were processed

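RNA-seq covered 18 libraries, ChAP-seq 3 HAB;BirA and 3 BirA libraries per tissue, and ATAC-seq 4 libraries per condition. RNA-seq reads were aligned by the authors with BBMap against the mm9 RefSeq transcriptome. The deposited values are CPM of each transcript, scaled to the summed transcript counts of a library. In the ChAP-seq lists the authors give read counts of the merged HAB;BirA and BirA libraries in each peak, a p-value with its false discovery rate, and a fold ratio over control, by SICER 1.1. For ATAC-seq the authors deposited an adjusted p-value per peak, with no fold or direction. The submitters' notes also name Bowtie2, STAR, MACS2 and edgeR.

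Whole reads were recovered from the CPM steps, and in every library 100% of values were whole within 0.05 reads. The transcript with the highest mean CPM stood for each gene, and 14472 genes above 1 CPM in at least 4 of the 18 libraries were tested with limma 3.58.1 (eBayes with trend) on log2(CPM + 1) in a model of the 4 groups, with Benjamini-Hochberg adjustment over all of them. A call needs an adjusted p below 0.05 together with a fold of 1.5 or more. No source names separate cultures or days, so p-values measure the spread between library pools. Counting limits cover counting error only. Libraries with the same replicate number deviated together, with r from 0.267 to 0.860 over 17 pairs, every one above 0.1. Different numbers of the same library set also deviated together, up to 0.796, and pairs across the sets had negative values. The deviations thus follow the library set and do not show that the numbers pair the samples. Replicates of a group correlated at r = 0.974 to 0.999.

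Peaks were near a gene within 20 kb of its body in GENCODE annotation of mm9, where 97.78% of tested genes were placed, and 1 shared base counted as overlap. Alternatives were other pseudocounts, filters and scalings, the replicate block, each library set alone, each library left out, edgeR 4.0.16 and DESeq2 1.42.0 on recovered reads, other distances and stricter peak limits. R 4.3.3, Python 3.11.15 and samtools 1.23.1 were used, and the fits were checked on simulated data. The 4 genes and all gene lists were chosen with earlier results of these data known. Named genes are the members, the fixed lists, the tested genes within 100 kb and, per member, the 3 genes of highest correlation. 1 item of the marker lists and 1 stretch of genome sequence are left out of the text.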

Additional observations from a re-analysis of the deposited data

Results flagged for a closer look

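In hypothyroid Thrb-KO, replicate 5 had the highest Ceacam10 level, 2.94 CPM, far from the other 4 libraries at 0.889 to 1.34 CPM. The same library had the highest Ceacam2 level of its group, 4.25 CPM, where the others had 2.87 to 3.20 CPM. With 36 groups examined, chance flags about 1 in 20.

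The T3 response differed between wild type and Thrb-KO, by limma's interaction term, for several named genes outside the Ceacam family. The difference was -1.60 for Bcl3 (adjusted p = 2.88e-05) and -0.95 for Col11a1 (adjusted p = 0.00114). It was 0.67 for L1cam (adjusted p = 0.00608), 0.62 for Cadm1 (adjusted p = 0.00475) and 0.94 for Jam3 (adjusted p = 0.0109), genes whose fall with T3 in wild type was smaller in Thrb-KO. For Cd177 the difference was -1.60, given without a test. That gene passed the filter on low values only through hyperthyroid wild type, where it is high.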

How the results depend on the processing

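Tested results for Ceacam16 (T3 in Thrb-KO) and Ceacam10 (genotype in hyperthyroid mice) kept their direction and call in all alternatives that gave a value. The filter of more than 1 CPM in all 18 libraries drops Ceacam16, Ceacam10 and Ceacam2. With the replicate block the Ceacam16 response in Thrb-KO was 1.82 (adjusted p = 5.40e-08) and the Ceacam10 difference -2.96 (adjusted p = 2.85e-07). The replicate block moved the counts of adhesion genes as given above (5 for the difference of responses and 4 for hypothyroid Thrb-KO) and left the call of every single gene followed under the alternatives. Causes of the shifts below were not tested, except that a smaller pseudocount widens the changes of low genes by construction.

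Log2 values for Ceacam16 moved to 4.38 and 5.35 with pseudocounts of 0.5 and 0.1, 5.77 with edgeR and 5.79 with DESeq2 (T3 in wild type), and in the same order to -2.08, -2.38, -2.53 and -2.55 (difference of responses). With a pseudocount of 0.1, edgeR and DESeq2, its genotype difference was 0.41, 0.50 and 0.51 in hypothyroid and -1.97, -2.03 and -2.04 in hyperthyroid mice. For Ceacam10 the hypothyroid genotype difference was -2.61, -2.65 and -2.65 under these settings and -2.51 in replicates 1 and 2. Its T3 response in Thrb-KO was 0.69 in replicates 1 and 2 and -0.14 in replicates 3 to 5, and its difference of responses 0.015 and -1.52.

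For Ceacam1 the T3 response in wild type turned to 0.054 with TMM factors, 0.059 with DESeq2 size factors, 0.085 in replicates 1 and 2, 0.081 with edgeR and 0.088 with DESeq2, and ranged from -0.15 to 0.10 with a library left out. Its hypothyroid genotype difference was -0.21 in replicates 1 and 2 and ranged from -0.032 to 0.12, and its T3 response in Thrb-KO was -1.59e-05 in replicates 3 to 5. For Ceacam2 in replicates 1 and 2 and in replicates 3 to 5, the genotype difference was -0.65 and 0.059 in hypothyroid and -0.10 and 0.87 in hyperthyroid mice, and its T3 response in Thrb-KO was -0.053 in the latter set. With a library left out its T3 response in wild type was -0.78 to -0.14 and its hyperthyroid genotype difference -0.0081 to 0.64.

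Pituitary TRβ-HAB peaks of Ceacam16 numbered 5 within 50 kb and 7 within 100 kb, cortex peaks 1 and 1, and ATAC peaks 4 and 5, or 2 at a stricter limit. Ceacam10 had 1 and 2 pituitary peaks, 1 cortex peak within 100 kb and 2 ATAC peaks within 100 kb, and Ceacam2 had 1 pituitary peak within 100 kb. DR4 sequences in the Ceacam16 peak numbered 1 with at most 1 mismatch and 3 with at most 3.

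Genes called over the whole table moved by over 1.5 times as follows. T3 in wild type gave 934 (DESeq2) or 1065 (no fold limit) higher and 1875 lower (no fold limit), against 620 and 889. T3 in Thrb-KO gave 54 (stricter filter), 125 (DESeq2) or 131 (no fold limit) higher and 167 (replicates 1 and 2) or 197 (no fold limit) lower, against 82 and 111. The difference of responses gave 506 (replicates 1 and 2) or 477 (DESeq2) lower, against 317. Genotype gave 335 (replicates 3 to 5) or 435 (no fold limit) higher in hypothyroid mice, against 171, and 790 and 1166 in hyperthyroid mice, against 409. It gave 550 (DESeq2) or 664 (no fold limit) lower in hypothyroid mice, against 342, and 664 (edgeR), 754 (DESeq2) or 705 (no fold limit) lower in hyperthyroid mice, against 408. Cadm1 fell under the fold limit with other scalings, and L1cam did so for the difference of responses without hyperthyroid wild-type replicate 3 (0.58, adjusted p = 0.00613). In replicates 3 to 5 alone L1cam had 0.68 (adjusted p = 0.0958). Leukocyte genes lower in Thrb-KO numbered 3 of 8 in replicates 1 and 2 for hypothyroid mice, and 1 in replicates 1 and 2 and 5 with edgeR or DESeq2 for hyperthyroid mice. With no filter on low values the listed tectorial genes also include Tecta and Tectb, which are given above without a test, so no count is read from that setting. Adhesion genes lower in hypothyroid Thrb-KO numbered 5 with edgeR or DESeq2 and 6 with no fold limit.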
